A study of Mus musculus with 6 samples.

Results

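Cardiomyocyte cultures that had been kept for 48 h with the secretome of Ccrl2+ macrophages were compared with cardiomyocyte cultures kept with the secretome of Ccrl2- macrophages. The comparison rests on 2 of the 6 Affymetrix arrays of the study, 1 array on each side, chosen by their sample titles, Ccrl2+/CM and Ccrl2-/CM. It was described across 19505 genes named by the platform's probe annotation, of which 9995 were past a floor on low values. The macrophages had been sorted from 6 pooled hearts of wild-type mice 1 week after TAC (transverse aortic constriction), an operation that narrows the aorta so that the left ventricle pumps against a raised pressure. All samples are labelled as heart of C57BL/6N mice aged 15 to 16 weeks, and the labels do not say whether that age belongs to the macrophage donors or to the cultured cells. A further array, titled sham, held cardiomyocytes given phosphate-buffered saline (PBS) over the same 48 h, and 3 more held cardiac fibroblast cultures (CF) under the same 3 conditions. The protocols speak of co-culture with sorted cells and the source labels of a secretome, and the source labels were followed. The comparison asks whether factors from the Ccrl2+ macrophages act on cardiomyocytes differently from those of Ccrl2- macrophages.

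Ccrl2 is an atypical chemokine receptor that binds the attractant chemerin and is not known to signal by itself. Macrophages recruited to a pressure-overloaded heart release cytokines, growth factors and proteases, and such factors are known to alter contractile, metabolic and stress genes in cardiomyocytes and to activate fibroblasts. Cultures of primary cardiomyocytes also hold other heart cells, chiefly endothelial cells, fibroblasts, epicardial cells and resident macrophages, and RNA from the whole culture reports on all of them.

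Values are log2 probe set summaries, and every difference below is the Ccrl2+ array minus the Ccrl2- array, so that 1 is 2-fold and a negative number is lower with the Ccrl2+ secretome. The floor was 6.55, the median of all named values, and a gene was past it when its higher value reached it. With 1 array per group there is no spread between samples, no test was made and no p-value is given, so the number of arrays limits the precision of every value. Negative control probe sets had a median of 6.22 on the Ccrl2+ array and of 6.2 on the Ccrl2- array, and their 95th percentiles were 10.22 and 10.25, which puts low values within the range of the controls. On the Ccrl2+ array the median of 4 poly-A spike-in transcripts was higher by 0.32 (range -0.07 to 0.41). For the 4 spike-in transcripts added at hybridisation it was higher by 0.195 (range 0.13 to 0.25). Several list medians given below as higher with Ccrl2+ are smaller than both, such as 0.13 for sarcomere and 0.1 for oxidative phosphorylation genes.

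Both arrays carried high levels of cardiomyocyte genes. The cardiac myosin heavy chain gene Myh6 lay at 17.27 with the Ccrl2+ and 17.26 with the Ccrl2- secretome, the troponin gene Tnnt2 at 17.82 and 17.73, and the natriuretic peptide gene Nppa at 18.91 and 18.59. The calcium release channel gene Ryr2 lay at 13.68 and 13.78. These cultures therefore match their label, but other cell types were present on both arrays. The endothelial markers Cdh5 (15.57 and 15.43) and Pecam1 (14.11 and 14.08), the fibroblast proteoglycan gene Dcn (15.45 and 15.67) and the myeloid lysozyme gene Lyz2 (12.27 and 12.64) were all well above the floor. Dcn was the highest of 22 fibroblast genes, whose medians were 8.06 and 8.44. Other fibroblast markers were much lower, such as Tcf21 (7.03 and 7.52) and Dpt (7.78 and 8.2). The neutrophil list was not past the floor on either array in any of its 14 genes. Of 16 lymphocyte genes, 2 were past it. Ccrl2 itself lay at 7.61 and 7.45, against 7.77 in PBS. These values are of the culture RNA, and the labels do not settle whether sorted macrophages added to it.

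The arrays of the Ccrl2+ and Ccrl2- secretomes were close to each other, with a Pearson correlation of 0.9965 across genes, which are not independent replicates. Of 9995 genes past the floor, 13 were higher with the Ccrl2+ secretome by 2-fold or more (0.13%), 18 were lower (0.18%), and 31 differed either way (0.31%). In the same arrays 407 of 2568 negative controls over the floor reached 2-fold in either direction (15.8%). The differences of these controls had a standard deviation of 0.872, against 0.274 for genes past the floor. The controls thus varied more than the genes, and their share is not an error rate for genes. The median difference over all genes was 0.0, and the central 95% of genes lay between -0.57 and 0.57. The largest differences were thus below 3-fold in both directions. At 1.5-fold, 232 genes were higher (2.32%) and 239 lower (2.39%). The spread narrowed with the level. The standard deviation of the differences across genes was 0.352 for genes with a mean below 8 and 0.156 for those with a mean of 14 or more. Of the genes called at 2-fold, 11 of the 13 higher and 10 of the 18 lower had a mean below 8. Among all 9995 genes past the floor, 1905 had a mean from 6.55 to 8, and some others a mean below 6.55. All 13 higher and 14 of the 18 lower genes had their brighter value under the negative controls' 95th percentile. This share was not counted over all genes past the floor, of which a further 2789 had a mean from 8 to 10. For 14 genes, 5 higher and 9 lower, both values were at or above the floor. At the edge of the threshold Lmod3, Pde1a and Aif1 lay just inside at 1.0, -1.0 and -1.0, and Spry1, Gpc3 and Rgs5 just outside at -0.99, -0.97 and -0.97.

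**Figure D1:**
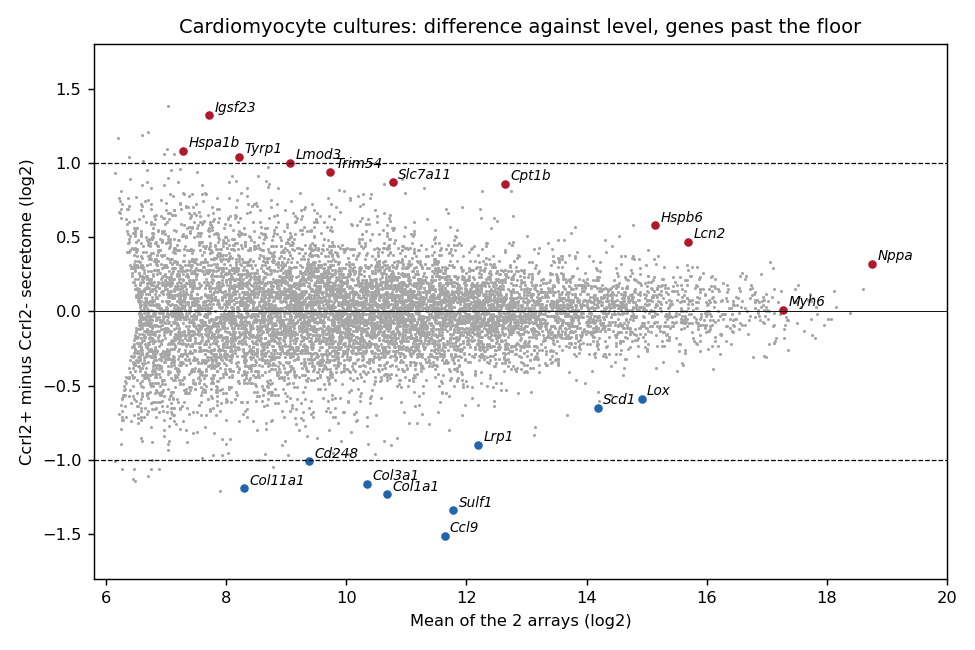
Each point is 1 of the 9995 genes past the floor. The x axis is the mean log2 level on both arrays and the y axis the log2 difference, Ccrl2+ minus Ccrl2- secretome, with dashed lines at 2-fold and coloured points for genes named in the text; most genes lie between -0.57 and 0.57, and the points below -1 at mid levels are Ccl9, Sulf1, Col1a1 and Col3a1.

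Genes lower with the Ccrl2+ secretome were led by a chemokine and by matrix genes. Ccl9, which encodes a CC chemokine made by macrophages, lay at 10.88 with the Ccrl2+ and 12.39 with the Ccrl2- secretome, against 12.03 in PBS, and was 2.85-fold lower (-1.51). The Ccrl2+ culture was thus the low one, and PBS lay near the Ccrl2- culture. Sulf1, which encodes a sulfatase that trims heparan sulfate, lay at 11.11 against 12.45 (-1.34), and PBS lay at 10.86. The chain of fibrillar collagen I encoded by Col1a1 was at 10.07 against 11.3, with PBS at 10.13, a difference of -1.23. For Col3a1, the collagen III chain, the levels were 9.77 against 10.93 (PBS 8.78) (-1.16), and for Col11a1, a minor fibrillar chain, 7.7 against 8.89 (PBS 6.89) (-1.19). PBS was lower than both cultures for these last genes, at 8.78 and 6.89. In Sulf1 and these collagen genes the Ccrl2- culture was therefore the highest of the 3. Tmcc2 (7.3 against 8.51, PBS 7.54), Jrkl (8.26 against 9.31, PBS 8.96), the stromal endosialin gene Cd248 (8.88 against 9.89, PBS 7.98) and the phosphodiesterase gene Pde1a (8.06 against 9.06, PBS 7.78) completed the genes at 2-fold with both values over the floor. Spry1, a feedback inhibitor of growth factor signalling (-0.99), the glypican gene Gpc3 (-0.97), the pericyte gene Rgs5 (-0.97), the Wnt modulator gene Sfrp2 (-0.97), Abhd14b (-0.96) and Cd180, a Toll-like receptor homologue of myeloid cells (-0.96), followed.

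Genes higher with the Ccrl2+ secretome were at lower levels. Igsf23, a gene of the immunoglobulin superfamily, lay at 8.38 against 7.06, with PBS at 8.32, and was 2.5-fold higher (1.32). Hspa1b, an inducible heat shock protein 70 gene, lay at 7.82 against 6.74, with PBS at 8.22 (1.08). Its probes can also bind the near-identical Hspa1a, which lay at 7.0 against 6.69 (PBS 7.68). The inositol phosphatase gene Inpp5j was at 7.67 against 6.61, and PBS equalled the Ccrl2- culture at 6.61. Tyrp1, a gene of pigment synthesis, reached 8.73 against 7.69 (PBS 8.37), and Lmod3, which encodes an actin filament nucleator of striated muscle, 9.56 against 8.56 (PBS 10.17). Next were the lipid droplet gene Fitm1 (0.97), the autophagy gene Atg2b (0.96), the tight junction gene Ocln (0.95), the sialyltransferase gene St8sia6 (0.94) and the muscle ring finger gene Trim54 (0.94). They were followed by the glutathione-degrading enzyme gene Chac1 (0.91), the transcription factor gene Sox6 (0.91), the kinase gene Mapk4 (0.9), the Golgi protein gene Trip11 (0.89) and the alcohol dehydrogenase gene Adh1 (0.88). PBS lay nearer to the Ccrl2+ than to the Ccrl2- culture for 11 of the 13 genes called higher and for 12 of the 18 called lower. For the rest it was nearer to the Ccrl2- culture. The same share over all genes was not counted. Over all genes past the floor, the Ccrl2- array was the lowest of the 3 in 34.9% and the highest in 34.1%. The Ccrl2+ array was so in 28.7% and 26.5%. These shares do not give how often PBS lay nearer to either culture, so they cannot show whether the counts are particular to the called genes.

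Where the dimmer value lay below the floor, it was raised to the floor, and the difference is then given as a bound. The floor is the median of all named values and not a limit of detection. With 1 array on each side, such a bound does not cover error in the brighter value. Ccn5, a matricellular gene that was far higher in fibroblast cultures, was at least 1.17 higher with Ccrl2+ (7.72 against 6.34, PBS 7.9). The zinc finger gene Zfp994 was at least 1.01 higher, the mitochondrial tryptophan-tRNA ligase gene Wars2 at least 0.84, the potassium channel interacting protein gene Kcnip2 at least 0.75 (7.3 against 6.09, PBS 6.88) and Mtx3 at least 0.74. On the lower side the bound was -0.86 for the connexin gene Gja3 (6.35 against 7.41, PBS 7.6). It was -0.73 for the proton-sensing receptor gene Gpr65 (6.22 against 7.28, PBS 7.5) and -0.71 for the macrophage gene Aif1 (6.26 against 7.26, PBS 7.09). Crct1 (bound -0.67) and the anchoring protein gene Sphkap (bound -0.65) came after them. Clone genes were left out of this order, although 1810010H24Rik had a bound of 0.95 and 9130008F23Rik one of -0.71. The remaining genes called at 2-fold with a value below the floor were Zim1, Upp1, Ndnf and the ventricular transcription factor gene Irx4 on the higher side, with bounds from 0.23 to 0.64. On the lower side they were Cgref1, Agmo, Cyp2d10, Lpcat4 and Fam241b, with bounds from -0.51 to -0.11.

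**Figure D2:**
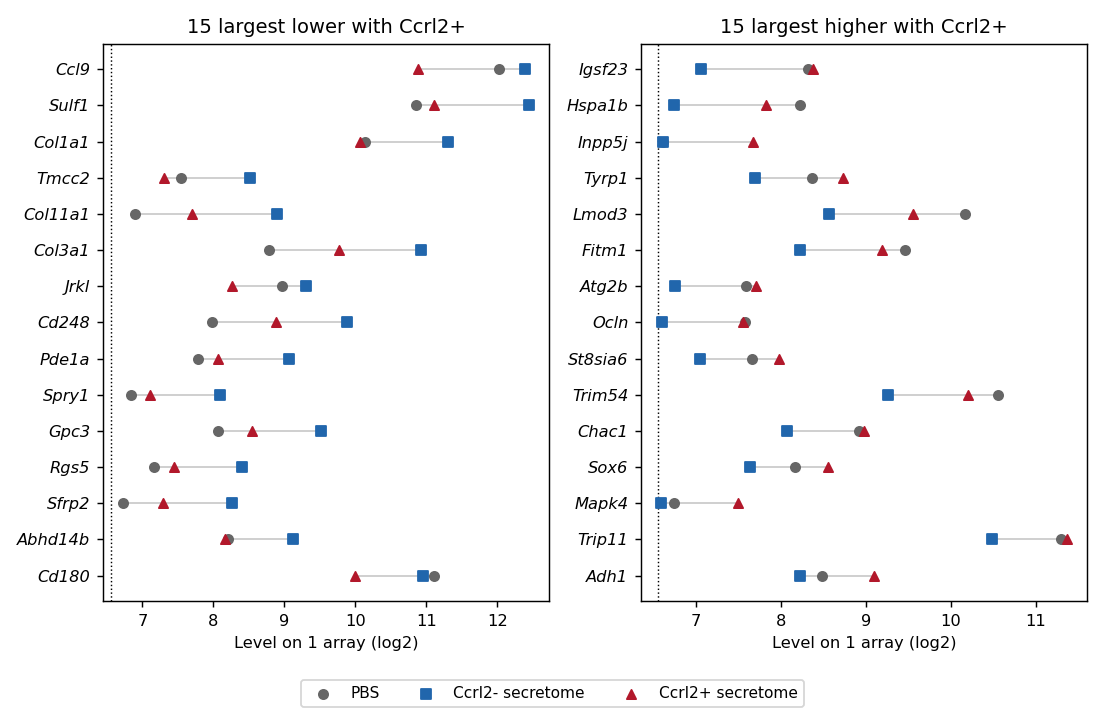
Log2 level on each of the 3 cardiomyocyte arrays for the 15 largest lower (left) and 15 largest higher (right) genes with both secretome values at or over the floor, which is the dotted line. Grey circles are PBS, blue squares the Ccrl2- and red triangles the Ccrl2+ secretome, 1 array each; in most matrix genes on the left PBS is lowest and Ccrl2- highest, and Ccl9 is lowest with Ccrl2+.

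The stretches upstream of the transcription start are shown for 3 of these genes, a matrix gene and a chemokine gene that were lower and a heat shock gene that was higher. They are genes at 2-fold, 1 of each kind, that the promoter table held, and Col3a1 is not the matrix gene with the largest difference. They are the 250 bases before the start from RefSeq, build GRCm38.p6, 5′ to 3′ on the strand of the gene, and the start site follows the last base. They lie at chr1:45311288-45311537 on the plus strand for Col3a1, at chr11:83578637-83578886 on the minus strand for Ccl9 and at chr17:34959239-34959488 on the minus strand for Hspa1b. Capitals mark matches, on either strand, to TATAAA (the TATA box core), CCAAT (the CCAAT box) and GAANNTTC (a heat shock element core).
Col3a1: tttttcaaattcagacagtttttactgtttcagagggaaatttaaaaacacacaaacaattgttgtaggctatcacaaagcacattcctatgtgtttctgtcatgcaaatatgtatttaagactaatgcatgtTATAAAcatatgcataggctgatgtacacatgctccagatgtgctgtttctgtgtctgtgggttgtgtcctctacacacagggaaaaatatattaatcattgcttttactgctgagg
Ccl9: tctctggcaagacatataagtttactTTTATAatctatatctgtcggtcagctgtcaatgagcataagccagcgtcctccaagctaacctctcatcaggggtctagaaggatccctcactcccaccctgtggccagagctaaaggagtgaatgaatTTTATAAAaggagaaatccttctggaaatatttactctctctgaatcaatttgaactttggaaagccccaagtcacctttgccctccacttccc
Hspa1b: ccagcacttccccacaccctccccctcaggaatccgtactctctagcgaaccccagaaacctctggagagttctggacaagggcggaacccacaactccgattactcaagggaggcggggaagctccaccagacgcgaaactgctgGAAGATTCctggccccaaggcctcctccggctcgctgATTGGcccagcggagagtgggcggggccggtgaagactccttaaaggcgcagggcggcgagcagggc
The Col3a1 stretch held 1 match, to TATAAA. In the Ccl9 stretch TATAAA matched 3 times, and 2 of these matches, on opposite strands, overlap. The Hspa1b stretch held 1 match to GAANNTTC and 1 to CCAAT on the opposite strand. Of 32851 upstream stretches of this length, 12.4% held TATAAA, 33.8% CCAAT and 6.69% GAANNTTC. The matches describe the letters in these windows.

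Genes that mark fibroblasts were lower with the Ccrl2+ secretome as a list. Of 18 fibroblast identity genes past the floor, among 22 with a value, 16 were lower and 2 higher, against 49.8% of all genes lower. Their median was -0.44, against 0.0 over all genes, and -0.39 once low values were set to the floor. At 1.5-fold 6 were lower and 0 higher. Besides Col1a1, Col3a1, Cd248 and Sfrp2, the surface marker gene Thy1 (11.31 against 12.11, PBS 10.88) and the collagen chain gene Col1a2 (11.58 against 12.28, PBS 10.91) were lower. The fibroblast transcription factor gene Tcf21 lay at 7.03 against 7.52, with PBS at 6.2. In 13 of the 18 the level ran from PBS through Ccrl2+ to the highest value with Ccrl2-, an order that 20.4% of all genes past the floor had. The median of these genes minus PBS was 0.34 with the Ccrl2+ and 0.94 with the Ccrl2- secretome, which share the PBS array. By these medians both secretome cultures lay above the PBS culture, the Ccrl2- culture more so. The summed linear level of the 22 genes, in log2, was 15.98 in PBS, 16.14 with Ccrl2+ and 16.43 with Ccrl2-. Most of this sum came from 1 gene, Dcn, at 15.34, 15.45 and 15.67. In RNA of a whole culture, fewer cells of a type and less RNA per cell cannot be told apart.

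Matrix genes followed the same course, and they share members with the fibroblast list. Of 22 collagen and matrix genes past the floor, 16 were lower and 6 higher, with a median of -0.18. At 1.5-fold, 7 were lower, among them the elastin gene Eln (10.2 against 11.07, PBS 10.3), the collagen VI chain gene Col6a3 (9.63 against 10.31, PBS 9.06) and the cross-linking enzyme gene Lox (14.62 against 15.21, PBS 14.47). Protease and inhibitor genes had a median of -0.18, with Mmp23 (6.55 against 7.39, PBS 5.65), the aggrecanase gene Adamts5 (10.61 against 11.22, PBS 10.49) and the urokinase gene Plau (8.4 against 8.99, PBS 8.86) lower, and the urokinase receptor gene Plaur higher (10.51 against 10.02, PBS 10.35). Genes of activated fibroblasts and the TGF-beta response were closer to 0, with a median of -0.07 and 12 of 19 lower. Lox and the secreted protein gene Cthrc1 (5.94 against 6.57, PBS 5.95, bound -0.02) were their members at 1.5-fold. Among smooth muscle and pericyte genes, beside Rgs5, the myosin light chain kinase gene Mylk (7.6 against 8.22, PBS 6.93) was lower and the cofactor gene Myocd (9.81 against 9.19, PBS 10.04) higher. The list median was -0.18, and it turned to 0.17 with the floor at the 75th percentile of all named values.

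Across all genes, the direction of the difference tended to go with where a gene was expressed, although some lists given further below did not follow this. The fibroblast and cardiomyocyte cultures in PBS, a pair of arrays that the comparison does not use, served as the scale. Of 73 genes higher in the fibroblast culture by a log2 difference of 4 or more, 63 were lower with the Ccrl2+ secretome (86.3%), with a median of -0.45. Of 245 genes lower in the fibroblast culture by as much, 191 were higher with the Ccrl2+ secretome (78.0%), with a median of 0.18. Genes that differed less between the cultures lay between, and the 6982 genes within 2-fold had a median of -0.01 with 47.7% higher. Over 9869 genes Pearson's r was -0.301 and Spearman's rho -0.282, as a description across genes that share arrays and cannot serve as replicates. Of 226 genes 1.5-fold lower with Ccrl2+, 42.5% were at least 2-fold higher in the fibroblast culture, against 11.8% of all genes. Of 217 genes 1.5-fold higher, 45.6% were at least 2-fold lower in the fibroblast culture, against 17.4% of all genes. The fibroblast markers above moved with this pattern, and their part in it was not tested.

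**Figure D3:**
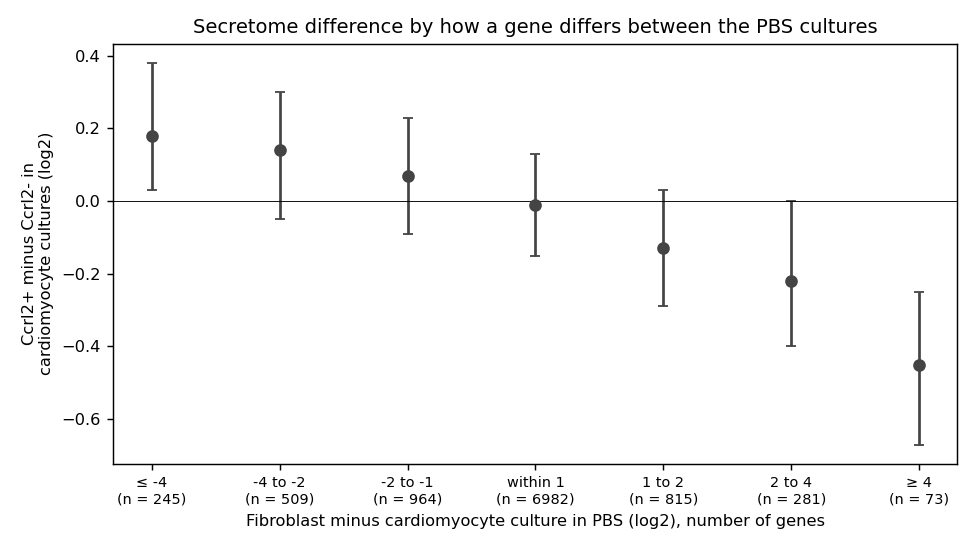
Genes past the floor are grouped on the x axis by the log2 difference between the fibroblast and cardiomyocyte cultures in PBS, with the number of genes in each group. Points are the median and bars the quartiles, across genes, of the log2 difference between the secretomes in cardiomyocyte cultures; the medians step from 0.18 in genes of the cardiomyocyte culture to -0.45 in genes of the fibroblast culture.

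Epicardial genes were lower with the Ccrl2+ secretome in 10 of 11 past the floor, with a median of -0.41. The urothelial plaque and mesothelial gene Upk3b lay at 9.48 against 10.35, with PBS at 9.39, and the mesothelial gene Lrrn4 at 10.42 against 11.27, with PBS at 9.69. The basonuclin gene Bnc1 (6.64 against 7.18, PBS 6.05) and the epicardial transcription factor gene Tbx18 (9.1 against 9.56, PBS 9.43) were lower as well. In 9 of the 11 genes the order was PBS, Ccrl2+, Ccrl2-. Beside this, the list was 0.87 higher, by its median, in the fibroblast than in the cardiomyocyte culture in PBS.

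Cell division genes were lower by small amounts in nearly every member. Of 24 mitosis genes past the floor, 22 were lower and 2 higher, with a median of -0.29, and 0 reached 1.5-fold in either direction. The proliferation antigen gene Mki67 lay at 13.37 against 13.69 (PBS 12.83) and the cyclin gene Ccnb2 at 11.97 against 12.1 (PBS 11.51). The kinase gene Plk1 differed by -0.57. The kinesin genes Kif23 (9.93 against 10.45, PBS 9.54) and Kif11 (10.97 against 11.39, PBS 10.69) and the cyclin gene Ccna2 (10.81 against 11.27, PBS 10.48) were lower. Aurkb, the kinase of the chromosomal passenger complex, went the other way, at 9.51 against 8.96 (PBS 9.26). The order PBS, Ccrl2+, Ccrl2- held for 21 of the 24 genes, in which the Ccrl2- culture was thus highest. Among DNA replication genes 21 of 24 were lower, with a median of -0.24, among them the clamp loader gene Rfc4 (9.81 against 10.54, PBS 9.9), Gins1 (7.16 against 7.67, PBS 6.79) and the helicase gene Mcm2 (10.22 against 10.71, PBS 9.98). The polymerase gene Pole was lower by raw values (5.92 against 6.65, PBS 5.98), with a bound of -0.1 against the floor. The ligase gene Lig1 was higher (7.83 against 7.25, PBS 7.3). Both lists were higher in the fibroblast culture in PBS, by medians of 1.12 and 0.58.

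Lipid synthesis genes were lower in 17 of 19, with a median of -0.24 and 2 genes at 1.5-fold. These were the desaturase gene Scd1 (13.86 against 14.51, PBS 13.69) and the elongase gene Elovl6 (11.25 against 11.86, PBS 11.04). The farnesyl diphosphate synthase gene Fdps (10.81 against 11.27, PBS 10.7) and the sterol sensor gene Insig1 (13.35 against 13.7, PBS 13.18) were lower too. The list stood 1.02 higher, by its median, in the fibroblast culture in PBS.

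Macrophage transcripts were lowest in the Ccrl2+ culture. Of 23 macrophage markers past the floor, among 30 with a value, 21 were lower than with the Ccrl2- secretome and 2 higher, with a median of -0.32. In 20 of the 23 the Ccrl2+ array had the lowest of the 3 cardiomyocyte values, against 28.7% of all genes. C1qc, a chain of complement C1q, lay at 9.39 against 10.07, with PBS at 10.69, and C1qb at 10.9 against 11.53, with PBS at 12.25. The adaptor gene Tyrobp (8.83 against 9.49, PBS 9.73), the lysosomal gene Laptm5 (10.93 against 11.5, PBS 12.09), the Fc receptor chain gene Fcer1g (10.63 against 11.12, PBS 11.75) and the mannose receptor gene Mrc1 (11.76 against 12.23, PBS 12.92) had the same order. The receptor gene Csf1r lay at 9.65 against 9.97, with PBS at 10.67. This order differs from that of the fibroblast genes, since PBS was highest. The summed linear level of the 30 genes, in log2, was 17.23 in PBS, 16.67 with Ccrl2+ and 16.89 with Ccrl2-. Most of this sum came from 1 gene, Gpnmb, at 16.45, 16.06 and 16.23. By its median the list differed by -0.57 between the fibroblast and cardiomyocyte cultures in PBS. Since the protocols speak of co-culture, RNA of resident and of sorted macrophages cannot be told apart here.

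Complement and chemokine genes were lower in part. The complement list had a median of -0.45 over 11 genes, with 9 lower, and -0.35 once low values were set to the floor. It shares the C1q chains with the macrophage list. The properdin gene Cfp (9.67 against 10.48, PBS 11.08) and the anaphylatoxin receptor gene C3ar1 (10.86 against 11.4, PBS 11.7) had PBS highest. The C1 inhibitor gene Serping1 (10.29 against 11.19) had PBS lowest, at 9.58. Among 12 cytokine and chemokine genes 3 were lower by 1.5-fold or more and 0 higher, all of them CC chemokine genes. Beside Ccl9 these were Ccl3 (9.92 against 10.81, PBS 12.1) and Ccl6 (9.09 against 9.94, PBS 10.68), while Ccl2, the monocyte attractant, lay at 12.86 against 13.08 (PBS 13.09). The list median was -0.02. Probes of Ccl6 and Ccl9 can bind related transcripts.

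Interferon-stimulated genes were lower in 12 of 17 past the floor, with a median of -0.13, and 4 were at 1.5-fold. These 4 were the exonuclease gene Isg20 (7.5 against 8.36, PBS 7.63), Xaf1 (7.64 against 8.37, PBS 8.91), Ifit3 (9.09 against 9.8, PBS 10.96) and the deconjugating protease gene Usp18 (6.8 against 7.45, PBS 8.69). Rsad2, the viperin gene, was higher at 7.45 against 6.97 (PBS 9.53). Of the genes named here, PBS was above both secretome cultures for all but Isg20. The list median minus PBS was -0.94 with the Ccrl2+ and -0.72 with the Ccrl2- secretome, which share the PBS array. The Ccrl2+ value was the lowest of the 3 in 12 of the 17, against 28.7% of all genes. Antigen presentation and interferon-gamma genes had a median of -0.15 with 11 of 15 lower, and 0 reached 1.5-fold. Its most abundant member, the class I light chain gene B2m, lay at 16.93 against 17.15 (PBS 17.21). The peptide transporter gene Tap1 lay at 7.41 against 7.86 and the GTPase gene Irgm1 at 11.95 against 12.35 (PBS 12.4).

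**Figure D4:**
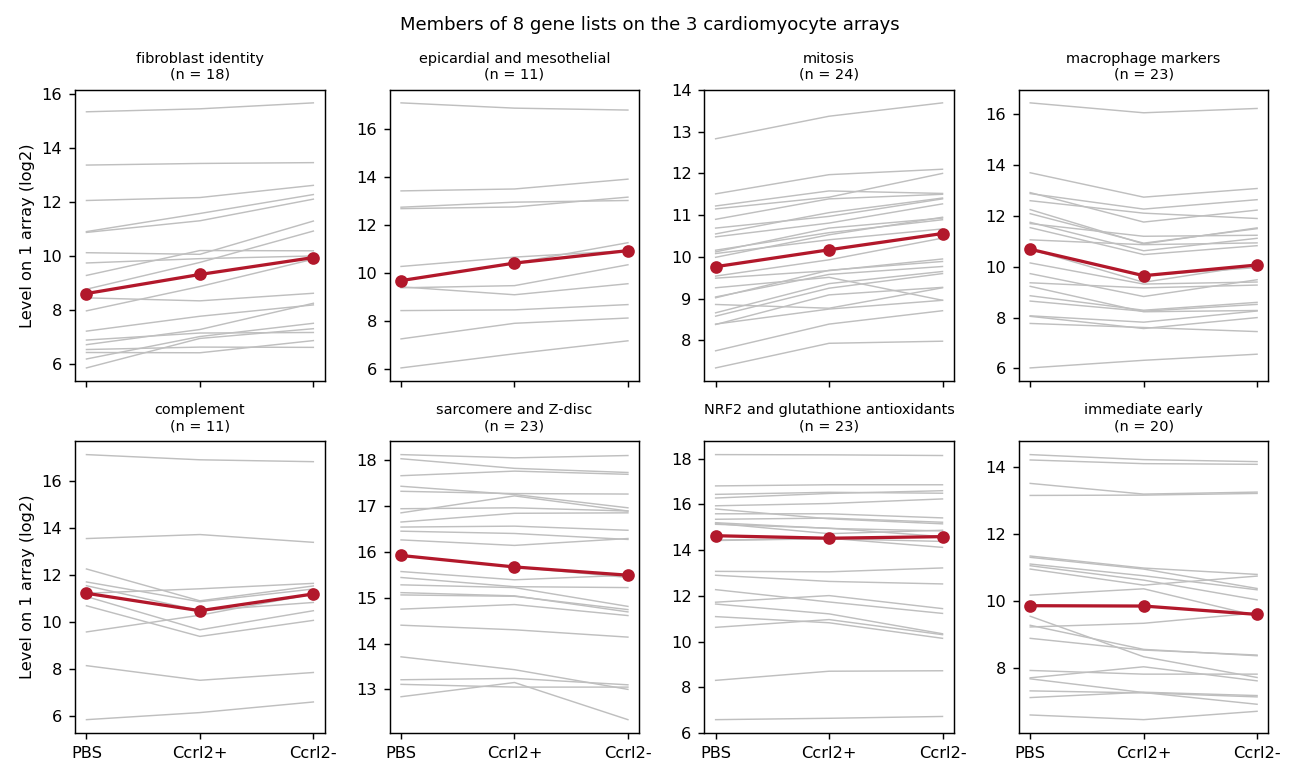
Log2 level on the PBS, Ccrl2+ and Ccrl2- cardiomyocyte arrays, 1 array each, for the members past the floor of 8 gene lists. Grey lines are genes and the red line joins the medians; the fibroblast, epicardial and mitosis medians step up from PBS to Ccrl2- (8.62, 9.32 and 9.95 for fibroblast identity), while the macrophage median is lowest with Ccrl2+ (10.69, 9.65 and 10.07).

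Contractile genes were slightly higher with the Ccrl2+ secretome. Of 23 sarcomere and Z-disc genes past the floor 18 were higher and 4 lower, with a median of 0.13, against 48.3% of all genes higher. Only Myh7, the slow myosin heavy chain gene of the fetal program, reached 1.5-fold in this list, at 13.15 against 12.34, with PBS at 12.84 (0.81). The Z-disc gene Ldb3 differed by 0.43. The giant sarcomere protein gene Ttn (15.22 against 14.81, PBS 15.28) and the light chain genes Myl3 (15.04 against 14.69, PBS 15.11) and Myl2 (17.22 against 16.89, PBS 16.85) were higher. Among abundant genes outside the lists, chosen after their values were seen, the leiomodin gene Lmod2 lay at 12.66 against 11.85 (PBS 12.47) and the muscle ubiquitin ligase gene Fbxo40 at 12.57 against 11.88 (PBS 12.61). Calcium handling genes had a median of 0.11, with 12 of 15 higher and 0 at 1.5-fold, and the calcium pump gene Atp2a2 lay at 17.5 against 17.43 (PBS 17.66). The calcium channel subunit genes Cacnb2 (12.58 against 12.28, PBS 12.46) and Cacna1c (13.52 against 13.26, PBS 13.28) had the largest differences.

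Ion channel genes had a list median of 0.24 over 11 genes, with 8 higher, and Kcnip2 was their member at 2-fold. The inward rectifier gene Kcnj3 lay at 11.47 against 11.02 (PBS 11.14) and the rapid delayed rectifier gene Kcnh2 at 13.05 against 12.67 (PBS 13.18), while Kcnj12 was lower at 7.91 against 8.31 (PBS 8.2). Of the cardiac transcription factor genes, Irx4 had a bound of 0.57 (7.12 against 6.11, PBS 7.27). Tbx5 lay at 11.26 against 10.69 (PBS 11.29) and the estrogen-related receptor gene Esrrg at 8.25 against 7.86 (PBS 8.04). Gata6 (11.62 against 11.97, PBS 12.25) and Tbx20 (16.08 against 16.37, PBS 15.91) were lower, and the list median was 0.16. Fetal and hypertrophy genes as a list had a median of 0.0, with 9 higher and 9 lower, and Myh7, Xirp2 and Myocd at 1.5-fold. The natriuretic peptide gene Nppb lay at 15.14 against 14.9 (PBS 15.48), and Xirp2, an intercalated disc gene, at 8.91 against 8.23 (PBS 8.57). The difference of 0.32 in Nppa was 0.15 after quantile normalization.

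Mitochondrial energy genes were higher with the Ccrl2+ secretome in most members, by small amounts, where 48.3% of all genes were higher. Of 34 oxidative phosphorylation genes, all past the floor, 27 were higher and 6 lower, with a median of 0.1, and only the cytochrome c1 gene Cyc1 was at 1.5-fold (12.28 against 11.58, PBS 12.56). The tricarboxylic acid cycle median was 0.15 with 13 of 17 higher and 4 lower, led by the fumarase gene Fh1 (13.02 against 12.66, PBS 13.12), while the abundant pyruvate dehydrogenase gene Pdhb lay at 16.62 against 16.46 (PBS 16.66). For fatty acid oxidation and uptake it was 0.11 with 15 of 23 higher and 8 lower. Cpt1b, the muscle carnitine palmitoyltransferase that admits fatty acids to mitochondria, lay at 13.07 against 12.21, with PBS at 13.27 (0.86). The thioesterase gene Acot2 (14.09 against 13.52, PBS 13.92), the acyl-CoA dehydrogenase gene Acadvl (12.99 against 12.54, PBS 13.2), the kinase gene Pdk4 (9.96 against 9.52, PBS 10.2) and the fatty acid transporter gene Cd36 (13.78 against 13.41, PBS 13.63) were higher as well. Cpt1b and Acadvl lay closer to PBS with Ccrl2+ than with Ccrl2-. The sarcomere, calcium, ion channel, respiratory chain and fatty acid lists were all lower in the fibroblast culture in PBS, by medians of -7.34, -3.41, -4.32, -2.2 and -1.59. Glycolysis and hypoxia genes had a median of 0.02, with the aldolase gene Aldoc (8.55 against 9.17, PBS 8.44) and the prolyl hydroxylase gene P4ha1 (12.8 against 13.34, PBS 12.68) lower.

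Stress response genes were among those higher with the Ccrl2+ than with the Ccrl2- secretome, but mostly not higher than in PBS. Of 16 heat shock chaperone genes 14 were higher, with a median of 0.16. Beside Hspa1b the small heat shock protein genes Hspb6 (15.43 against 14.85, PBS 15.35) and Hspb8 (13.01 against 12.54, PBS 12.91) and the co-chaperone gene Bag3 (12.5 against 12.14, PBS 12.48) had the largest differences. Their PBS values lay closer to the Ccrl2+ than to the Ccrl2- culture. Targets of the oxidant sensor NRF2 included 3 genes at 1.5-fold, all higher. They were the cystine transporter gene Slc7a11 (11.21 against 10.34, PBS 11.64), the sulfiredoxin gene Srxn1 (10.82 against 10.14, PBS 11.09) and the quinone reductase gene Nqo1 (10.96 against 10.3, PBS 10.62). The glutathione synthesis genes Gclc (11.73 against 11.23, PBS 12.27) and Gclm (14.52 against 14.12, PBS 14.63) and the thioredoxin reductase gene Txnrd1 (14.96 against 14.59, PBS 15.13) were higher too. The list median was 0.11, with 15 of 23 higher and 7 lower. Minus PBS, a shared array, the heat shock median was -0.11 with the Ccrl2+ and -0.32 with the Ccrl2- secretome. For the NRF2 list these medians were 0.0 and -0.18.

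The unfolded protein and integrated stress response list had a median of 0.15, with 16 of 23 higher. Its members at 1.5-fold were Chac1 (8.98 against 8.07, PBS 8.92) and Slc7a11, which it shares with the NRF2 list. The serine hydroxymethyltransferase gene Shmt2 (12.57 against 12.11, PBS 12.07), the transcription factor gene Ddit3 (11.66 against 11.31, PBS 12.07) and the folate enzyme gene Mthfd2 (13.77 against 13.42, PBS 13.73) were higher, and the disulfide isomerase gene Pdia6 was lower (14.44 against 14.7, PBS 14.09). Immediate early genes had a median of 0.14, with 14 of 20 higher and 3 at 1.5-fold. The stress transcription factor gene Atf3 lay at 10.37 against 9.56 (PBS 10.18), the AP-1 genes Fosl1 at 8.34 against 7.72 (PBS 9.55) and Jun at 10.63 against 10.04 (PBS 11.06). The phosphatase gene Dusp5 (10.96 against 10.38, PBS 11.31) lay just under 1.5-fold. In Fosl1, Jun and Dusp5 (PBS 11.31) both secretome cultures were below PBS. For p53 targets the median was 0.16 with 12 of 16 higher, and the receptor gene Eda2r had the largest difference (12.08 against 11.58, PBS 12.77). The abundant cyclin G gene Ccng1 lay at 17.11 against 17.12 (PBS 17.25). Minus PBS, the p53 median was -0.38 with the Ccrl2+ and -0.43 with the Ccrl2- secretome. The immediate early median was -0.24 with each, and the unfolded protein and integrated stress median 0.04 and -0.05. The autophagy and proteolysis list had a median of 0.12, with the muscle ubiquitin ligase genes Fbxo32 (9.63 against 9.2, PBS 9.28) and Trim63 (12.85 against 12.45, PBS 12.93) higher and the cathepsin gene Ctsb lower (17.04 against 17.24, PBS 17.26).

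The other lists had medians between -0.18 and 0.12. The NF-kB list had a median of 0.02 with 10 of 19 higher, and Ptgs2, the inducible cyclooxygenase gene, was at least 0.54 higher (7.09 against 6.4, PBS 7.22). The acute phase median was 0.0 over 7 genes, and -0.17 over all its genes with no floor, with the siderophore-binding lipocalin gene Lcn2 at 15.92 against 15.45 (PBS 15.76), Serpina3n at 12.9 on both arrays, and Serpina3f at 7.71 against 8.3 (PBS 7.83). For the IL-6 family and STAT3 response it was 0.04, with the cytokine suppressor gene Cish at 11.65 against 11.03 (PBS 12.05). Endothelial markers had a median of -0.02, with 9 higher and 11 lower, although von Willebrand factor, encoded by Vwf, lay at 7.25 against 8.03 (PBS 7.71) and the guidance receptor gene Robo4 at 9.12 against 8.37 (PBS 8.71). Growth factor genes had a median of 0.11, with Fgf2 lower (7.64 against 8.5, PBS 7.01) and the atrial growth factor gene Bmp10 higher (15.07 against 14.49, PBS 15.12). Medians of glucocorticoid targets (-0.06), cell death (-0.05), leukocyte adhesion (-0.05) and adrenergic, cholinergic and G protein genes (-0.09) were small. Their most abundant members included Mcl1 (14.74 against 14.64) and Vcam1 (15.52 against 15.35, PBS 15.45). Within the last list, the phosphodiesterase gene Pde5a lay at 7.99 against 8.7 (PBS 8.09) and the muscarinic receptor gene Chrm2 at 10.58 against 9.95 (PBS 10.57). The glucocorticoid-induced kinase gene Sgk1 lay at 14.79 against 14.28 (PBS 15.08). Metallothionein and zinc genes had a median of -0.18 over 7 genes, 6 of them lower, with Mt1 at 17.72 against 17.9 (PBS 18.01) and Mt2 at 17.23 against 17.49. Renin-angiotensin and natriuretic genes had a median of 0.12, with a difference of 0.53 in the endothelin gene Edn1. Cytosolic ribosomal protein genes had a median of -0.03, with Rps6 at 17.3 against 17.34 (PBS 17.12). Chemerin, encoded by Rarres2, was below the floor on both arrays, and its receptor gene Cmklr1 lay at 7.1 against 6.69 (PBS 7.36).

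**Figure D5:**
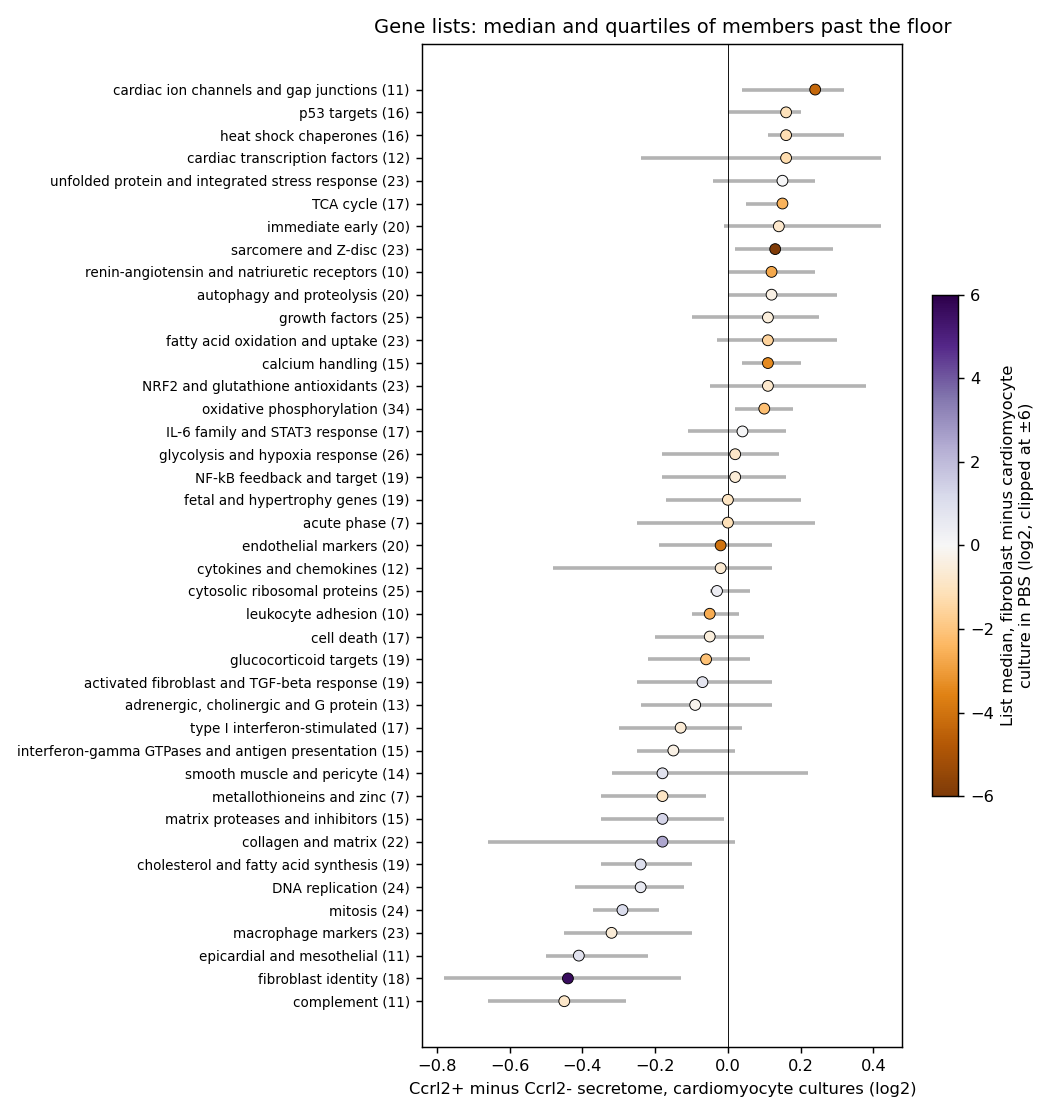
For each of the 41 gene lists with at least 5 genes past the floor (number in brackets), the point is the median and the bar the quartiles, across genes, of the log2 difference Ccrl2+ minus Ccrl2-. The colour gives the list's median difference between the fibroblast and cardiomyocyte cultures in PBS; medians run from -0.45 (complement) to 0.24 (ion channels), and 10 of the 12 lists that were higher in the fibroblast culture lie below 0.

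Between the lists, 21 of 41 with at least 5 genes past the floor had a median below 0 and 18 above. Of the 12 lists that were higher in the fibroblast culture in PBS, 10 had a negative median, and of the 29 that were lower, 16 had a positive one. The macrophage and complement lists were among those lower in the fibroblast culture that had a negative median, and were only slightly lower there (-0.57 and -0.82). Other lists were far lower in the fibroblast culture without being higher with the Ccrl2+ secretome. They were endothelial markers (-4.07, with a median of -0.02), leukocyte adhesion (-2.64, with -0.05) and glucocorticoid targets (-2.11, with -0.06). Across genes, the differences had the smallest spread among abundant genes, which is not a measure of error with 1 array per group. Of 891 genes with a mean of at least 14, 3 were lower by 1.5-fold or more and 0 higher, and the 3 were Scd1, Lox and the retinaldehyde dehydrogenase gene Aldh1a1 (13.9 against 14.5, PBS 14.1), named after their values were seen. Of 1636 genes with a mean of 12 to 14, 8 were higher and 7 lower by as much. The lipoprotein receptor gene Lrp1 (11.75 against 12.65, PBS 11.99) and the desaturase gene Fads2 (13.32 against 14.02) were lower, and Cpt1b, Myh7, Lmod2 and Fbxo40 higher.

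Against PBS, a shared array, the Ccrl2+ culture differed at 2-fold in 84 of 10009 genes (0.839%). The Ccrl2- culture differed in 154 of 10054 (1.53%). In fibroblast cultures the same pair of secretomes differed at 2-fold in 18.6% of 10144 genes, 8.55% higher and 10.1% lower, against 0.31% in cardiomyocyte cultures. The difference between the cell types was not tested, with 1 array in each group. Over 9482 genes past the floor in both, Pearson's r between the cardiomyocyte and fibroblast differences was -0.007 and Spearman's rho 0.001, across arrays that are not shared. Of 14 genes called lower in cardiomyocyte cultures and past the floor in both, 2 reached 2-fold upwards and 2 downwards in fibroblasts. In fibroblast cultures Ccl9 lay at 13.5 with the Ccrl2+ and 14.64 with the Ccrl2- secretome (-1.14), and Aif1 at 6.56 with the former and 8.73 with the latter (-2.17), so that both were lower there too. Col11a1 was higher there, at 12.24 with Ccrl2+ and 10.91 with Ccrl2-. So was Agmo, an ether lipid monooxygenase gene, at 8.35 with Ccrl2+ and 5.72, below the floor, with Ccrl2-. Of the genes called higher in cardiomyocyte cultures, 4 were past the floor in both, and 0 of them differed at 2-fold in fibroblasts.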

How the data were processed

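Biotin-labelled total RNA (1 to 8 ug) of the cultures was hybridised to Affymetrix arrays, per the labels' protocols. The authors deposited log2 summaries of probe sets, for which the submitters' processing notes name Affymetrix Expression Console. Its version, summary method and build are not stated there. The log2 scale was read from the values. Sorted values of the 6 arrays lay within 0.3 of each other, so a shift shared by most genes could not have been seen.

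Of 28846 probe sets, 19572 had 1 gene symbol, 0 several and 9274 none, and the Entrez identifiers of all 19572 were in the RefSeq table, with 0 symbols changed. The probe set with the highest mean stood for each of 55 symbols that had several. The Ccrl2- array was subtracted from the Ccrl2+ array. A gene counted when its higher value reached the floor of 6.55 and its difference 2-fold. No test was possible with 1 array per group.

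Named genes are, in each direction, the 15 largest differences with both values over the floor and the 5 largest bounds, with predicted and clone genes left out of both. Each list added at most 4 members by size of difference, or the most abundant 1 or 2 where it had none at 1.5-fold. The markers and the genes called in both cell types were also named. Further list members and the remaining 2-fold genes were named after their values were seen. The members and the 46 lists were chosen with earlier results of these data known. The counting code was checked on simulated data with large shifts in genes far above the floor. That check does not bear on how reliable calls are near the threshold or at low levels. Alternatives were thresholds of 1.5-fold and 3-fold, the floor left out, moved to the 75th percentile or used as a minimum value, quantile normalization, removal of a loess trend (span 0.4), averaging of probe sets, and Spearman's rho. Tools were matplotlib 3.10.9, statsmodels 0.14.6, scipy 1.17.1, pandas 2.3.3 and numpy 2.4.6 under Python 3.11.15.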

Additional observations from a re-analysis of the deposited data

Results flagged for a closer look

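The genes Agmo and Col11a1 went in opposite directions between the secretomes in the 2 cell types, each by at least 2-fold. Col11a1 was lower with the Ccrl2+ secretome in cardiomyocyte cultures (-1.19) and higher in fibroblast cultures (1.33). Agmo differed by -1.13 in cardiomyocyte cultures, where its lower value lay below the floor and the bound is -0.46, and by 2.63 in fibroblast cultures. With 1 array per group, the difference between the cell types was not tested.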

How the results depend on the processing

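The counts of genes moved most with the settings, from 13 higher and 18 lower to 232 and 239 at 1.5-fold, 0 and 0 at 3-fold, 30 and 53 with no floor, 0 and 4 with the floor at the 75th percentile (10.14), and 7 and 9 once low values were set to the floor. Quantile normalization gave 13 and 15, of which 12 and 15 were genes of the main count, a loess trend removed 12 and 15, and the mean of probe sets 13 and 18. The correlation of the differences with the fibroblast minus cardiomyocyte difference in PBS, a result added after the data were seen, was -0.206 with no floor and -0.389 with the floor at the 75th percentile, against -0.301. The number of lists with a median below 0 lay between 17 and 25 over the alternatives, and no list median of at least 0.2 in size changed sign under the alternatives run. With the floor at the 75th percentile the medians of fibroblast identity and of collagen and matrix were -0.57 and -0.38, the cardiac transcription factor median was 0.0, and the smooth muscle and pericyte median was 0.17. With no floor those of complement, epicardial and acute phase genes were -0.35, -0.25 and -0.17. Complement had the lowest list median at the main setting, but not with low values set to the floor, with no floor or with the higher floor. No paired analysis was possible because each group has 1 array, and no array could be left out. The number of arrays and, for low genes, the closeness to the negative controls limit these results.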
